A study of Mus musculus with 16 samples.

Results

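Undifferentiated mouse embryonic stem cells without REST, a transcriptional repressor, were compared with control stem cells. The comparison took the day 0 arrays, 2 of REST -/- cells and 2 of REST +/+ cells, which are 4 of the 16 arrays of the series. The other 12 arrays held embryoid bodies of both genotypes after 3, 6 and 9 days of differentiation, with 2 arrays for each genotype and day. All the day 0 cells grew without feeders on gelatin, in serum medium with leukemia inhibitory factor, the cytokine that holds mouse stem cells undifferentiated. No transgene, drug or other allele is named for either genotype, and the labels name neither the deleted exons nor a clone or strain. A single REST -/- line and a single REST +/+ line are named, so a difference between the lines and the effect of losing REST cannot be told apart. Whether the arrays of a group stem from separate cultures is not stated. The p-values therefore reflect only how far these arrays differ among themselves, which may be technical.

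REST is a zinc-finger protein that binds a sequence named RE1 near many genes of neurons and endocrine cells. It brings in the corepressors Sin3a and Rcor1, which carry histone deacetylases and the histone demethylase Kdm1a, and so holds these genes low in cells that are not neurons. Mouse stem cells make much REST, and it is degraded as they turn into neurons.

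Biotin-labelled RNA was read on Illumina bead arrays, which give an intensity and a detection p for each probe. Levels below are normalized log2 intensities of 1 probe per gene, and differences are knockout minus control on that scale. Levels of different probes are not comparable. The knockout arrays detected 7827 and 7688 probes, against 7550 and 6300 on the control arrays. The second control array stood apart with the fewest detected probes, and the control arrays differed from each other by at least 1 on the log2 scale for 100 genes, against 17 genes between the knockout arrays. Calls lost on leaving out this or another day 0 array are given with the genes concerned.

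The stem-cell label was set against marker genes. Of 29 pluripotency markers on the array, 26 were detected on both knockout arrays and 25 on both control arrays. Of the markers of other lineages, 14 of 20 for trophoblast, 23 of 29 for mesoderm and fibroblasts, 17 of 28 for primitive endoderm and 17 of 23 for neural progenitors were undetected on all 4 arrays, among them Cdx2, Hand1, Col1a1, Gata6 and Sox1. The Rest probe was not detected in either genotype. Its intensity was 14.9 and 32.0 in knockout cells, against 39.2 and 44.0 in control cells, and with undetected probes kept it differed by -0.31 ± 0.14 (adjusted p = 0.435), so it gave no check of the genotype.

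Few genes differed between the genotypes, and more were higher than lower in the knockout. Of 7505 genes tested, 164 differed between knockout and control (2.19% of the genes tested, adjusted p below 0.05 by limma over all genes). Of these, 106 were higher (1.41%) and 58 were lower (0.773%) in the knockout. Scaling by the median of each array in place of quantiles gave 156 higher and 29 lower, with the median of all genes at 0.13, so the balance of rises and falls depends on the scaling. The median rise was 0.88 and the median fall was -0.85, and 40 rises and 19 falls reached 1 on the log2 scale. In all 164 genes the 2 knockout arrays lay outside the range of the 2 control arrays, a separation that also held for 1574 genes upward (21%) and 1530 genes downward (20.4%) among all those tested. The spread was estimated over all 16 arrays. A fit to the 4 day 0 arrays alone, which leaves a much poorer estimate of the spread, called 36 genes, 27 higher and 9 lower. With all later arrays kept, 88 genes were called without the first knockout array, 71 without the second, 282 without the first control array and 107 without the second. Under all 18 settings run, 25 genes remained called, 18 higher and 7 lower.

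**Figure D1:**
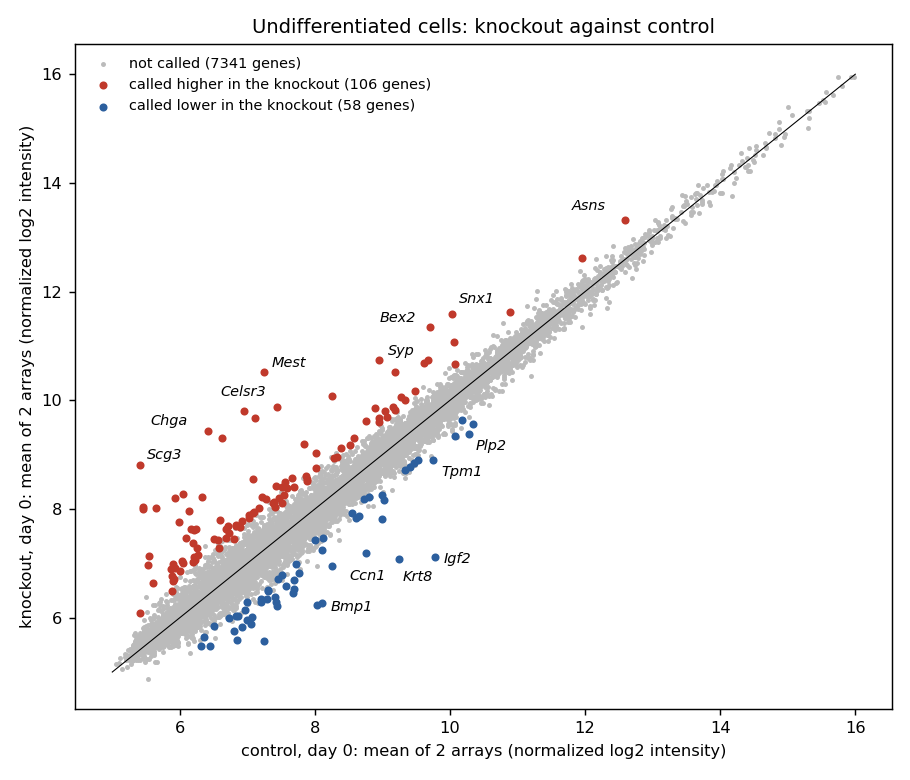
Mean normalized log2 intensity of each of the 7505 genes in knockout cells (vertical axis) and in control cells (horizontal axis), 2 arrays each, with equality as a line. The 106 genes called higher in the knockout (red) lie mostly at low control levels, and the 58 called lower (blue) lie below the line.

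Genes of regulated secretion, by which neurons and endocrine cells store peptides in dense-core granules and release them on a signal, were among the largest rises. Scg3, a secretogranin that sorts cargo into granules, had log2 levels of 8.93 and 8.68 in knockout cells, against 5.42 and 5.41 in control cells. Its probe was detected on both knockout arrays and on neither control array. The knockout level of Scg3 was above control by at least 2.96-fold, a bound set by the lowest signal called detected on the control arrays (adjusted p = 1.55e-09). Chga, chromogranin A, a main protein of the granule core, had log2 levels of 9.36 and 9.50 in knockout cells, against 6.78 and 6.04 in control cells, where it was not detected. It was at least 4.56-fold higher (adjusted p = 1.19e-06), and its other probe differed by 1.32. Scg5, also called 7B2, a chaperone of a prohormone convertase, had log2 levels of 8.08 and 7.95 in knockout cells, against 5.70 and 5.60 in control cells, at least 1.71-fold higher. Vgf, a neuropeptide precursor induced by growth factors, had log2 levels of 8.20 and 8.20 in knockout cells, against 5.83 and 6.04 in control cells, at least 1.95-fold higher. For all 4 granule genes the groups were well apart and the knockout arrays lay close together.

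Of the REST targets listed for secretory vesicles and their fusion, 5 were called higher. Syt4, a synaptotagmin of secretory vesicles, had log2 levels of 9.93 and 9.83 in knockout cells, against 7.47 and 7.40 in control cells, a difference of 2.44 ± 0.16 (SE; adjusted p = 2.93e-07). Only 1 control array detected it, so the size is approximate. Syp, synaptophysin, an abundant membrane protein of synaptic vesicles, had log2 levels of 10.67 and 10.81 in knockout cells, against 8.66 and 9.25 in control cells. It was detected on all 4 arrays and rose by 1.78 ± 0.17 (adjusted p = 1.40e-05). Stx1a, the neuronal syntaxin of the fusion complex, was detected in both genotypes at log2 levels of 8.39 and 8.39 in knockout cells, against 7.65 and 7.54 in control cells. Its rise was smaller, 0.80 ± 0.12 (adjusted p = 0.00233). Cplx1, complexin, which clamps that complex, had log2 levels of 7.75 and 7.51 in knockout cells, against 6.18 and 6.14 in control cells, at least 1.31-fold higher (adjusted p = 0.00117). Rims2, a scaffold of the release site, had log2 levels of 6.94 and 7.05 in knockout cells, against 5.76 and 6.03 in control cells, where it was not detected (adjusted p = 0.0254). The groups did not overlap for any of these, but the Rims2 call was lost when any of the 4 day 0 arrays was left out.

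Among 15 tested genes of granules and secretion listed as REST targets, 9 rose (60%, against 1.41% of all genes tested) and none fell. Their median difference was 1.10, beside -0.000471 over all genes tested. Of the 15, 9 had passed the detection filter only through a knockout group, 7 of the called genes among them. Over all genes tested 5.50% had done so. The count and the median therefore cannot be read as those of the whole list of 24 on the array. With undetected genes set at their bounds the median was 0.78. The 6 that were not called were Syn1, a synaptic vesicle phosphoprotein, at 0.82 (adjusted p = 0.0555), Sv2a at 0.36, Vamp2 at 0.24, Rph3a at 0.05, Scg2, secretogranin II, at 0.04 and Syt11 at -0.09.

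**Figure D2:**
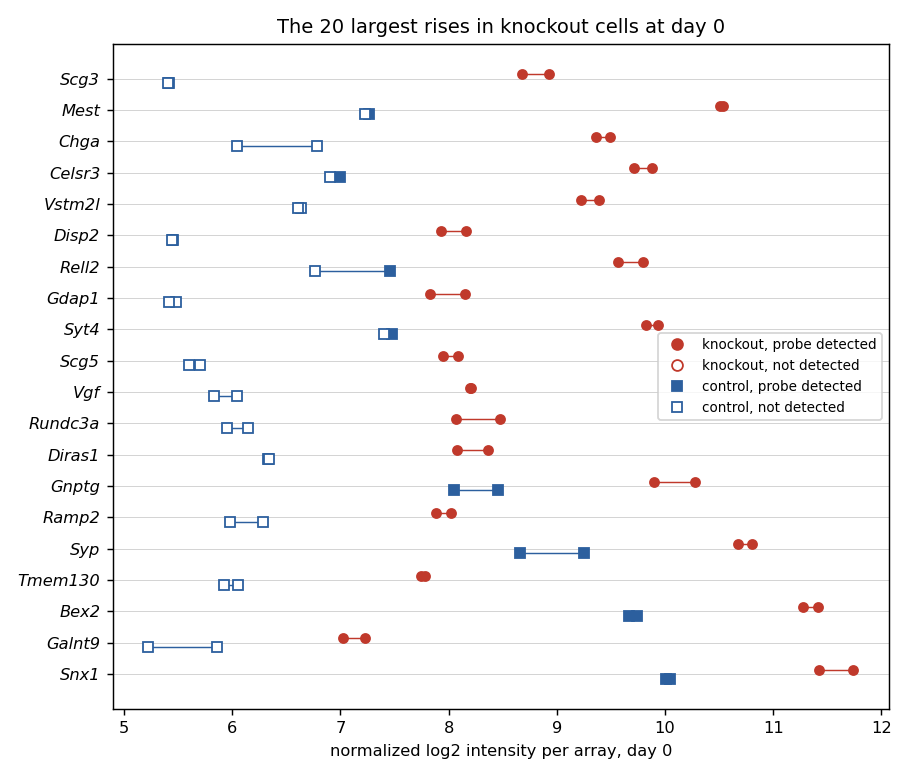
Normalized log2 intensity of the 20 genes with the largest rises at day 0, 1 point per array, with knockout arrays as red circles and control arrays as blue squares; filled points mark probes detected on that array. In every row both knockout arrays lie to the right of both control arrays, and most control points are open.

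The list of neuronal adhesion, axon and cytoskeleton genes, which also holds genes of other kinds, was the longest of the REST target lists. It had 11 rises among 32 tested genes (34.4%, against 1.41% of all genes tested). Celsr3, an adhesion receptor related to cadherins that guides axon tracts, had log2 levels of 9.88 and 9.72 in knockout cells, against 7.00 and 6.91 in control cells, a difference of 2.85 ± 0.14 (adjusted p = 9.27e-09). It was detected on both knockout arrays and on 1 control array, and the groups were far apart. Its promoter is shown because, of the 77 genes called higher whose promoter could be searched, it alone matched the conserved letters of the RE1 element. From RefSeq on build GRCm38.p6, plus strand, chr9:108825795-108826094, it reads as follows, with the match in capitals.
Celsr3: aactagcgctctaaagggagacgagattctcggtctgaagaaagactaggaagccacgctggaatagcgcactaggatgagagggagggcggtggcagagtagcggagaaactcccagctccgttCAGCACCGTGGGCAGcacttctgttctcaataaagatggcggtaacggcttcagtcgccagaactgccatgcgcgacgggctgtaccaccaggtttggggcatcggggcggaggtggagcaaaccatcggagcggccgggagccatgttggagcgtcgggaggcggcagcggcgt
The letters searched on both strands were CAGCACC and GGACAG with 2 free bases between them, and a match needed 12 of the 13 letters. The Celsr3 match starts at -125 from the gene's start and has 12 of 13. Windows from 250 bases before to 50 after a gene's start held such a match in 57 of 27025 genes (0.211%), in 12 of 6163 tested genes with a window (0.195%), in 1 of 77 called higher (1.30%) and in 0 of 44 called lower. Only 77 of the 106 genes called higher and 44 of the 58 called lower had a window, so the rest were not searched. The windows are short, so the other genes searched are described only as having no match there.

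Vstm2l, an immunoglobulin-domain protein of brain, had log2 levels of 9.23 and 9.39 in knockout cells, against 6.63 and 6.61 in control cells, at least 4.19-fold higher (adjusted p = 8.40e-07). Disp2, which belongs to the dispatched family of membrane proteins, had log2 levels of 8.16 and 7.93 in knockout cells, against 5.45 and 5.44 in control cells, at least 1.75-fold higher (adjusted p = 9.27e-09). Gdap1, a protein of the mitochondrial outer membrane in neurons, had log2 levels of 7.83 and 8.15 in knockout cells, against 5.48 and 5.42 in control cells, at least 1.69-fold higher (adjusted p = 4.47e-08). The other Gdap1 probe differed by 1.05. For these genes neither control array detected the probe. Bex2, a small brain-expressed protein encoded on the X chromosome, was well detected in both genotypes, at log2 levels of 11.28 and 11.41 in knockout cells, against 9.74 and 9.67 in control cells. Its rise of 1.64 ± 0.12 (adjusted p = 1.07e-06) was seen at 1.49 with another probe and at 0.02 with the remaining one.

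Smaller rises on this list rested more on single arrays. Nefh, the heavy neurofilament chain, had log2 levels of 7.34 and 7.88 in knockout cells, against 5.79 and 6.63 in control cells, at least 1.29-fold higher (adjusted p = 0.00732, and 0.106 without the second knockout array). Crmp1, a phosphoprotein of the axonal growth cone, was detected on both knockout arrays and on 1 control array. Its log2 levels were 8.11 and 8.32 in knockout cells, against 6.88 and 7.54 in control cells, a difference of 1.00 ± 0.19 (adjusted p = 0.0116). Without the second knockout array that p was 0.118, and without the first control array 0.0535. Mapk8ip2, a scaffold of the JNK kinase cascade in neurons, had log2 levels of 7.36 and 7.53 in knockout cells, against 6.63 and 6.38 in control cells, at least 1.15-fold higher (adjusted p = 0.0175). Lrp11, a membrane protein related to the low-density lipoprotein receptors, had log2 levels of 9.93 and 9.80 in knockout cells, against 9.08 and 8.70 in control cells, a difference of 0.97 ± 0.17 (adjusted p = 0.00658). The adjusted p of Mapk8ip2 was 0.0548 and 0.144 without the first and the second knockout array and 0.128 without the second control array. That of Lrp11 was 0.0629 without the first knockout array and 0.0753 without the second control array. Cdk5r1, the neuronal activator of the kinase Cdk5, and Stmn3, a stathmin that binds tubulin, were undetected on all 4 arrays although called (adjusted p = 0.00758 and 0.0313), so no size is given for them. The Cdk5r1 call was lost without the second array of either genotype, and the Stmn3 call without any 1 of the 4 arrays.

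Of 32 tested genes on this list 11 rose (34.4%, against 1.41% of all genes tested) and none fell. The median was 0.26, or 0.02 with undetected genes at their bounds. Of the 32, 11 had passed the filter only through a knockout group, 8 of the called genes among them. Over all genes tested 5.50% had done so. Many familiar neuronal genes were not called. The axonal protein Gap43 differed by 0.18 (adjusted p = 0.707), the neurofilament chain Nefl by 0.05 (adjusted p = 0.936), the stathmin Stmn2 by 0.04 (adjusted p = 0.943) and the kinesin heavy chain Kif5c by -0.74 (adjusted p = 0.0847).

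The other REST target groups had fewer tested members. Of 11 tested genes on the list of RNA-binding proteins and transcription factors 4 rose, where 1.41% of all genes tested did, and none fell. That list also holds genes of other kinds, Rundc3a and Tmem145 among them. Of the 11, 6 had passed the detection filter only through a knockout group, 3 of the called genes among them. Over all genes tested 5.50% had done so. Rundc3a, an effector of a Ras-like GTPase in neurons, had log2 levels of 8.07 and 8.48 in knockout cells, against 5.95 and 6.14 in control cells, at least 2.05-fold higher (adjusted p = 1.19e-06). Elavl3, an RNA-binding protein of neurons, had log2 levels of 7.18 and 7.56 in knockout cells, against 6.36 and 6.04 in control cells, at least 1.10-fold higher (adjusted p = 0.00121). The proneural factor Neurod1 was detected in both genotypes, at log2 levels of 10.75 and 10.75 in knockout cells, against 9.68 and 9.68 in control cells. It rose by 1.07 ± 0.23 (adjusted p = 0.0250), and each of the 4 removals of a day 0 array ended its call. The fourth, Tmem145, had log2 levels of 7.40 and 7.54 in knockout cells, against 5.72 and 6.46 in control cells, at least 1.17-fold higher (adjusted p = 0.0254), a call kept only without the second control array among the 4 removals. Of 7 tested channels and receptors, 4 had passed the filter only through a knockout group. Only Chrnb2, a nicotinic acetylcholine receptor subunit and 1 of those 4, was called. Its log2 levels were 7.19 and 6.74 in knockout cells, against 5.62 and 5.44 in control cells (adjusted p = 0.00104), with detection on 1 knockout array alone. The other Chrnb2 probe differed by 1.03.

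Over the 4 groups together, 25 of 65 tested REST target genes rose (38.5%, against 1.41% of all genes tested) and none fell. Of these 25, 19 had passed the filter only through a knockout group, and 30 of the 65 had done so. The lists were drawn from known REST targets with earlier results of these arrays in view, so their direction is not independent evidence. Of the 25, 17 to 20 kept their call when 1 day 0 array was left out, and 14 in the fit to the day 0 arrays alone. Without background correction 13 kept it, and the calls of Chga, Syt4, Vgf and Cplx1 were among those lost.

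None of 23 tested genes for REST's cofactors was called, and their median difference was -0.04. The scaffold Rcor1 differed by -0.01 (adjusted p = 0.997), the demethylase Kdm1a by 0.04 (adjusted p = 0.942), the scaffold Sin3a by -0.19 (adjusted p = 0.669) and the deacetylase Hdac2 by 0.13 (adjusted p = 0.764).

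**Figure D3:**
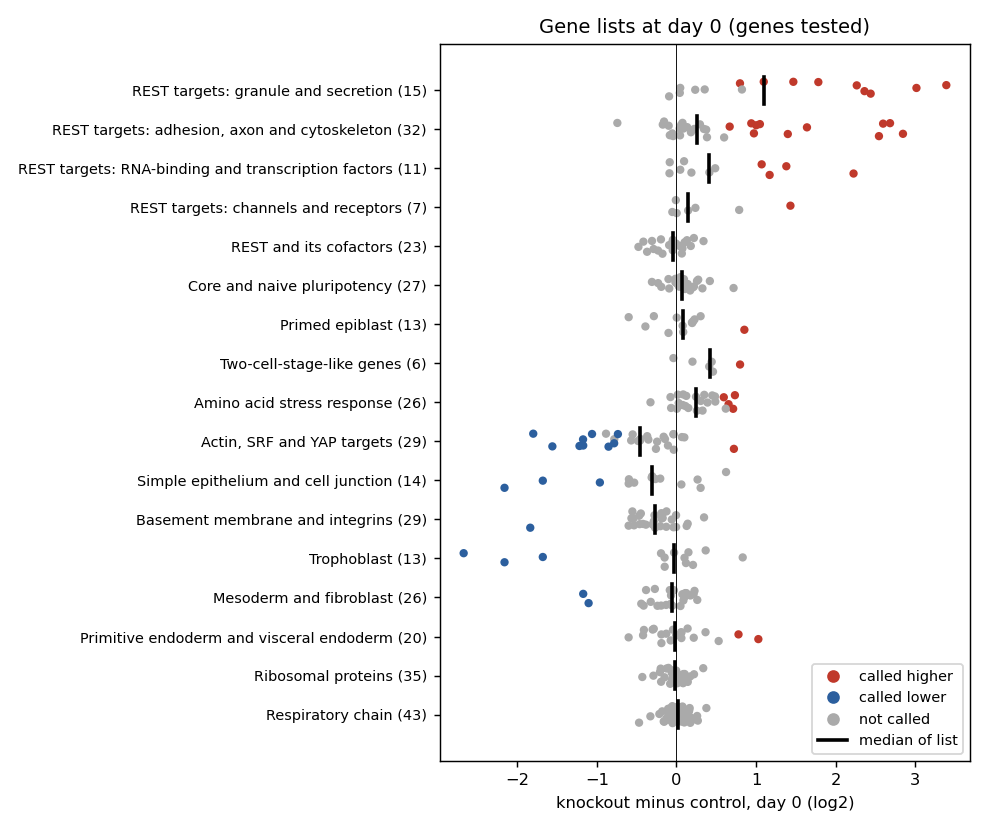
Difference of each tested list member at day 0 (knockout minus control, log2), 1 point per gene, with the number tested in brackets and the list median as a bar. Red points were called higher and blue points lower in the knockout; red points gather in the upper rows of REST targets, and blue points in the actin, epithelium and trophoblast rows.

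Several of the 20 largest rises lay outside the REST target lists. Mest, an imprinted gene expressed from the paternal allele, had the second largest, with log2 levels of 10.53 and 10.51 in knockout cells, against 7.26 and 7.22 in control cells, a difference of 3.28 ± 0.13 (adjusted p = 1.55e-09). The arrays of each group nearly coincided, and the other probes of Mest differed by 3.01 and 2.72. Only 1 control array detected the probe used for Mest, so the size is approximate. Of 28 tested imprinted genes Mest was the only one to rise and Igf2 the only one to fall, with a median of -0.01. Rell2, a relative of a tumour necrosis factor receptor, had log2 levels of 9.79 and 9.56 in knockout cells, against 7.46 and 6.76 in control cells, a difference of 2.57 ± 0.21 (adjusted p = 2.10e-06). It too was detected on 1 control array alone among the controls. Diras1, a Ras-like GTPase of brain, was at least 1.97-fold higher, with log2 levels of 8.08 and 8.36 in knockout cells, against 6.33 and 6.34 in control cells. Ramp2, which pairs with the calcitonin receptor-like receptor, was at least 1.64-fold higher, with log2 levels of 7.89 and 8.03 in knockout cells, against 6.29 and 5.98 in control cells.

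A pair of broadly expressed genes of intracellular sorting was on the same list of largest rises. Gnptg, a subunit of the enzyme that tags proteins for lysosomes, had log2 levels of 10.28 and 9.90 in knockout cells, against 8.46 and 8.05 in control cells. It rose by 1.84 ± 0.16 (adjusted p = 3.57e-06), and its other probes differed by 1.58 and 0.92. Snx1, a sorting nexin of the retromer, had log2 levels of 11.74 and 11.42 in knockout cells, against 10.01 and 10.05 in control cells. It rose by 1.56 ± 0.14 (adjusted p = 5.80e-06), and both genes were detected on all 4 arrays without overlap. Tmem130 was at least 1.44-fold higher, with log2 levels of 7.74 and 7.78 in knockout cells, against 6.06 and 5.92 in control cells. Galnt9, an enzyme that starts O-linked glycosylation, had log2 levels of 7.03 and 7.23 in knockout cells, against 5.86 and 5.22 in control cells, where it was undetected. Its bound was under 1, so no fold is given (adjusted p = 7.76e-05). The calls of Tmem130 and Galnt9 were lost without background correction.

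Noa1, a mitochondrial GTPase gene, was the only called gene among the 5 nearest tested genes on each side of Rest on chromosome 5. Its log2 levels were 10.46 and 10.59 in knockout cells, against 9.13 and 9.23 in control cells, a difference of 1.35 ± 0.14 (adjusted p = 4.46e-05), with 1.58 and 1.80 on its other probes. Of its neighbours, Srp72 differed by -0.14 (adjusted p = 0.702) and Igfbp7 by -0.54 (adjusted p = 0.336).

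The largest falls were those of a growth factor and a keratin. Igf2, the imprinted fetal growth factor, had log2 levels of 7.20 and 7.02 in knockout cells, against 10.08 and 9.48 in control cells, a difference of -2.67 ± 0.19 (adjusted p = 7.84e-07). Krt8, a keratin of simple epithelia, had log2 levels of 7.08 and 7.09 in knockout cells, against 9.18 and 9.30 in control cells, a difference of -2.16 ± 0.16 (adjusted p = 7.84e-07). Both genes were detected on all 4 arrays and the knockout arrays lay far below the control arrays. Krt18, the partner with which Krt8 forms filaments, had log2 levels of 5.59 and 5.55 in knockout cells, against 6.80 and 7.70 in control cells. It was undetected in the knockout and at least 1.28-fold lower there (adjusted p = 0.00968). That call depended on the higher second control array, without which the adjusted p was 0.110, and on each knockout array, without which it was 0.0556 and 0.0709. Dsc2, a desmosomal cadherin, was called (adjusted p = 0.0254) but undetected on all 4 arrays, and its call was kept only without the first control array among the 4 removals. Of 14 tested genes of simple epithelium and junctions these 3 fell (21.4%, against 0.773% of all genes tested) and none rose, with a median of -0.31. This list and those below were drawn up with earlier results of these arrays in view, so such counts are not independent evidence. E-cadherin, Cdh1, differed by -0.20 (adjusted p = 0.873).

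**Figure D4:**
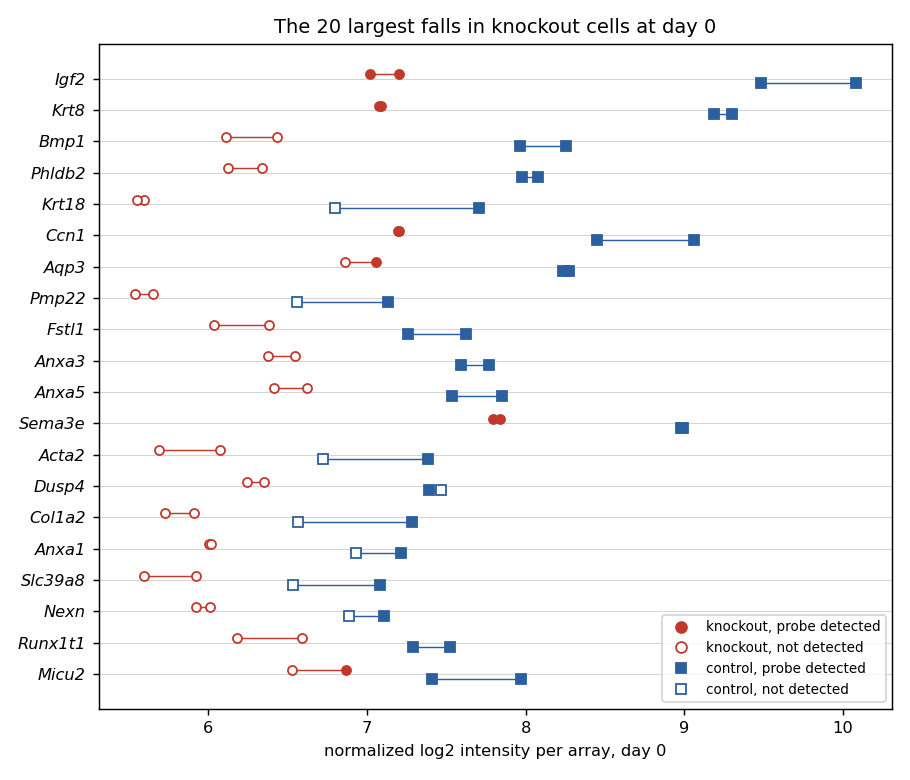
Normalized log2 intensity of the 20 genes with the largest falls at day 0, 1 point per array, with knockout arrays as red circles and control arrays as blue squares; filled points mark probes detected on that array. In every row both knockout arrays lie to the left of both control arrays, and most knockout points are open.

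Krt8, Krt18 and Igf2 are also markers of trophoblast, the outer lineage of the early embryo. Of 13 tested trophoblast markers these 3 fell (23.1%, against 0.773% of all genes tested), none rose, and the median was -0.03. The summed log2 level of the list was 10.81 and 10.65 in knockout cells, against 11.61 and 11.50 in control cells. The defining factors Cdx2, Eomes, Elf5 and Hand1 were undetected on all 4 arrays. Without the 3 called genes, the summed log2 level of the other 10 was 10.51 and 10.34 in knockout cells, against 10.39 and 10.40 in control cells, with the groups overlapping. Plet1, a surface marker of trophoblast, differed by 0.83 (adjusted p = 0.0627). In bulk RNA fewer cells of a type and less RNA per cell cannot be told apart.

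Genes of actin, adhesion and the serum response formed the group with the most falls. Of 29 tested genes 9 fell, where 0.773% of all genes tested did, and 1 rose, with a median of -0.46, or -0.24 with undetected genes at their bounds. The list was drawn up with earlier results of these arrays in view, so this count is not independent evidence. Without the first and the second knockout array 6 and 5 of the falls were called, and 3 in the fit to the day 0 arrays alone. Ccn1, a secreted matrix protein induced through YAP and serum response factor, had log2 levels of 7.19 and 7.20 in knockout cells, against 8.45 and 9.06 in control cells. It fell by 1.56 ± 0.18 on the log2 scale (adjusted p = 0.000113), and its other probe differed by -1.92. Phldb2, which anchors microtubules at the cell cortex near adhesions, had log2 levels of 6.34 and 6.12 in knockout cells, against 8.08 and 7.98 in control cells, at least 2.19-fold lower (adjusted p = 4.07e-06). Tpm1, a tropomyosin of actin filaments, had log2 levels of 8.90 and 8.90 in knockout cells, against 9.78 and 9.72 in control cells, a difference of -0.85 ± 0.12 (adjusted p = 0.00131). The arrays of Tpm1 were among the tightest of the group, and its call was lost only in the fit to the day 0 arrays alone.

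Among annexins, proteins that bind membranes in the presence of calcium, 3 fell. Anxa3 had log2 levels of 6.38 and 6.55 in knockout cells, against 7.77 and 7.59 in control cells, at least 1.72-fold lower (adjusted p = 0.00104). The other Anxa3 probe differed by -0.64. Anxa5 had log2 levels of 6.42 and 6.62 in knockout cells, against 7.53 and 7.85 in control cells, at least 1.74-fold lower (adjusted p = 0.00198). Anxa1 had log2 levels of 6.00 and 6.02 in knockout cells, against 7.21 and 6.93 in control cells, at least 1.13-fold lower (adjusted p = 0.00732). None of the 3 was detected on a knockout array, and the Anxa1 call was lost without either knockout array (adjusted p = 0.0520 and 0.0554). Anxa2 differed by -0.03 (adjusted p = 0.974). The smooth-muscle actin Acta2 had log2 levels of 6.07 and 5.69 in knockout cells, against 7.38 and 6.72 in control cells, at least 1.11-fold lower (adjusted p = 0.00902), and its other 3 probes differed by -1.10 to -1.61. Its adjusted p was 0.115 without the second knockout array and 0.0512 without the first control array. The galectin Lgals1 fell by 0.78 ± 0.16 and the focal adhesion protein Zyx by 0.73 ± 0.15 on the log2 scale (adjusted p = 0.0190 and 0.0232). The Lgals1 call was kept only without the first control array among the 4 removals, and the Zyx call only without the second.

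The one rise on this list was Egr1, an immediate early transcription factor of the growth factor response, with log2 levels of 11.66 and 11.58 in knockout cells, against 10.96 and 10.83 in control cells. It rose by 0.72 ± 0.14 (adjusted p = 0.0136), a call kept only without the first control array among the 4 removals. Dusp4, a phosphatase that shuts off MAP kinases, had log2 levels of 6.24 and 6.35 in knockout cells, against 7.39 and 7.47 in control cells, at least 1.45-fold lower (adjusted p = 0.00192). These were the only calls among 22 tested genes of the LIF, FGF and ERK response, which had a median of -0.01. Serum response factor itself, Srf, differed by -0.11 (adjusted p = 0.793).

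Of 29 tested genes of basement membrane and integrins Bmp1 alone was called. Differences of 0 or below were found for 26 of them, beside 50.1% of all genes tested, and the median was -0.27. As the list was drawn up with earlier results of these arrays in view, that share is not independent evidence. Bmp1, a protease that matures collagens, had log2 levels of 6.11 and 6.44 in knockout cells, against 8.25 and 7.96 in control cells, at least 2.32-fold lower (adjusted p = 2.55e-05). Its other probes differed by -0.30 and -0.07, so the size of the fall depends on the probe. Col4a1, a type IV collagen chain, differed by -0.60 (adjusted p = 0.178), and the integrin Itga5 by -0.57 (adjusted p = 0.439).

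Of 26 tested markers of mesoderm and fibroblasts, Acta2 and Col1a2 fell (7.69%, against 0.773% of all genes tested) and none rose, with a median of -0.06. Col1a2, a fibrillar collagen chain, had log2 levels of 5.73 and 5.91 in knockout cells, against 7.28 and 6.57 in control cells, at least 1.02-fold lower (adjusted p = 0.0250). The call held without the second control array and was lost without any of the other 3. The summed log2 level of the list was 10.92 and 10.87 in knockout cells, against 11.16 and 10.99 in control cells, while Col1a1, Col3a1, Twist1 and Mesp1 were undetected on all 4 arrays. The part of such cells in the falls was not tested.

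The remaining large falls belonged to unrelated functions. Sema3e, a secreted guidance cue for vessels and axons, had log2 levels of 7.80 and 7.83 in knockout cells, against 8.98 and 8.99 in control cells, a difference of -1.17 ± 0.14 (adjusted p = 0.000192). Aqp3, a channel for water and glycerol, had log2 levels of 6.86 and 7.06 in knockout cells, against 8.24 and 8.27 in control cells. It differed by -1.30 ± 0.15 (adjusted p = 0.000113), a call lost without background correction. Only 1 knockout array detected Aqp3, so the size is approximate. Fstl1, a secreted follistatin-like protein, had log2 levels of 6.38 and 6.04 in knockout cells, against 7.26 and 7.62 in control cells, at least 1.46-fold lower (adjusted p = 0.00198). For each of these genes the groups were apart by more than the arrays within them. Pmp22, a membrane protein of myelin and epithelia, had log2 levels of 5.65 and 5.54 in knockout cells, against 7.13 and 6.56 in control cells (adjusted p = 0.00136), with detection on the first control array alone. Nexn, an actin-binding protein of muscle, had log2 levels of 5.92 and 6.01 in knockout cells, against 7.11 and 6.89 in control cells, at least 1.07-fold lower (adjusted p = 0.00198). Slc39a8, a metal ion transporter, was called at an adjusted p of 0.00396 and lost its call without the second knockout array (0.0703). Runx1t1, a transcriptional corepressor, and Micu2, a regulator of mitochondrial calcium uptake, were called at adjusted p of 0.0146 and 0.00807. Both calls were lost without the second array of either genotype. The other probes of Slc39a8 and Nexn differed by 0.01 and 0.11, and those of Pmp22, Runx1t1 and Micu2 by -0.20, -0.26 and -0.33, all nearer to 0 than the probes used.

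Pluripotency genes gave no call. None of 27 tested was called, and the median was 0.08. Pou5f1, the transcription factor Oct4, had log2 levels of 11.71 and 11.80 in knockout cells, against 11.66 and 11.84 in control cells, a difference of 0.01 ± 0.16 (adjusted p = 0.996). Nanog had log2 levels of 13.72 and 13.79 in knockout cells, against 13.43 and 13.53 in control cells, a difference of 0.27 ± 0.26 (adjusted p = 0.706). Sox2 had log2 levels of 14.16 and 14.18 in knockout cells, against 14.12 and 13.94 in control cells, a difference of 0.14 ± 0.22 (adjusted p = 0.850). The standard errors are of the size of the differences. Zfp42, also called Rex1, differed by -0.23 ± 0.23, Klf4 by 0.11 ± 0.18 and Esrrb by 0.09 ± 0.21, with adjusted p of 0.730, 0.866 and 0.901. The other Klf4 probes differed by -0.34 and -0.58. The Dppa3 probe did not pass the detection filter. Socs3, a feedback inhibitor induced by LIF signalling, came nearest to a call in this list at 0.72 (adjusted p = 0.0524).

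Calls in the neighbouring cell states were few. Otx2, a factor of the primed epiblast, rose by 0.85 ± 0.20 (adjusted p = 0.0419), with log2 levels of 7.46 and 8.09 in knockout cells, against 7.03 and 6.81 in control cells. It was detected on both knockout arrays and on 1 control array. Its call depended on the high second knockout array, without which the adjusted p was 0.356, and was also lost without either control array (0.0512 and 0.216). It was the one call among 13 primed epiblast genes. Tcstv3, of a multigene family of the early cleavage stage whose probe may read its copies, rose by 0.80 ± 0.18 (adjusted p = 0.0339) and lost its call on each removal. Of 20 primitive endoderm markers 2 rose (10%, against 1.41% of all genes tested). Dab2, an endocytic adaptor, had log2 levels of 6.79 and 7.01 in knockout cells, against 5.99 and 5.75 in control cells (adjusted p = 0.00236), but its other probe differed by -0.26. Hnf4a, a nuclear receptor, had log2 levels of 6.42 and 6.94 in knockout cells, against 5.92 and 5.87 in control cells (adjusted p = 0.0336). The Hnf4a call was kept only without the first knockout array among the 4 removals. The summed log2 level of the primitive endoderm list was 12.79 and 12.78 in knockout cells, against 12.91 and 12.79 in control cells. None of 11 neural progenitor genes was called, with a median of -0.14 and summed log2 levels of 10.77 and 10.79 in knockout cells, against 10.74 and 11.12 in control cells. The rises of neuronal genes stood beside no call in that progenitor list.

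Of 26 tested genes of the amino acid stress response, which is switched on when amino acids run short, 4 were called higher and none lower. That is 15.4% called higher, against 1.41% of all genes tested. Positive differences were found for 23 of the 26, beside 49.9% of all genes tested, and the median was 0.25. This list too was drawn up with earlier results of these arrays in view, so these shares are not independent evidence. Asns, asparagine synthetase, had log2 levels of 13.33 and 13.29 in knockout cells, against 12.56 and 12.64 in control cells, a difference of 0.71 ± 0.15 (adjusted p = 0.0192), and its other probes differed by 0.61 and 0.84. Atf4, the transcription factor of the response, had log2 levels of 9.12 and 9.12 in knockout cells, against 8.25 and 8.52 in control cells, a difference of 0.74 ± 0.17 (adjusted p = 0.0426). The groups did not overlap for either gene. Atf5, a related factor, had an adjusted p of 0.0323, and Nars, an aminoacyl-tRNA synthetase, 0.0338. The calls were fragile, since leaving out 1 array at a time left from 0 to 2 of the 4. Atf4 and Asns lost theirs on each removal, Atf5 on all but that of the second knockout array, and Nars without the first array of either genotype.

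Other housekeeping and signalling lists held at most 1 call each. Ccnd2, a cyclin of the first growth phase, had log2 levels of 6.94 and 7.36 in knockout cells, against 6.32 and 6.23 in control cells, where it was undetected (adjusted p = 0.00873). It was the only call among 31 cell cycle genes and among 13 genes of the Wnt response, and was lost without the second array of either genotype. Perp, a desmosomal target of p53, fell by 0.78 ± 0.13 on the log2 scale (adjusted p = 0.00489, and 0.0503 without the second knockout array), the only call among 24 genes of p53 and apoptosis. Scd1, a fatty acid desaturase, rose by 0.65 ± 0.16 (adjusted p = 0.0499), the only call among 18 genes grouped with cholesterol synthesis, and lost its call on all but the removal of the first control array. None was called among 35 ribosomal proteins, 43 respiratory chain genes, 24 of hypoxia and glycolysis, 19 of interferon and antigen presentation, 17 of DNA methylation and the germline, 16 of heat shock and metallothioneins or 11 of the Notch pathway. Bmp1 was the only call among 23 genes of BMP, nodal and TGF-beta signalling.

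The later days showed whether these differences were also present in embryoid bodies. The later arrays hold other samples, but they share the normalization, the detection filter, the probe choice and the estimate of the spread with the day 0 comparison. Of the 106 genes higher at day 0, 52 were called higher on day 3 (3.94% of all genes tested), 43 on day 6 (1.43%) and 48 on day 9 (2.69%). Through days 0, 3, 6 and 9 their median differences were 0.88, 0.61, 0.42 and 0.45. Of these genes 35 were called higher on every later day and 44 on none. Among all genes tested at most 1.43%, the share of day 6, can have been called higher on every later day. Of the 58 genes lower at day 0, 12 were called lower on day 3 (2.85% of all genes tested), 0 on day 6 (0.32%) and 7 on day 9 (2.43%). Their medians were -0.85, -0.16, -0.12 and -0.11 in the same order of days, and 43 of them were called lower on no later day. At day 6, 38 of the 58 kept a difference below 0, a count with no day 6 share over all genes tested to set beside it.

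**Figure D5:**
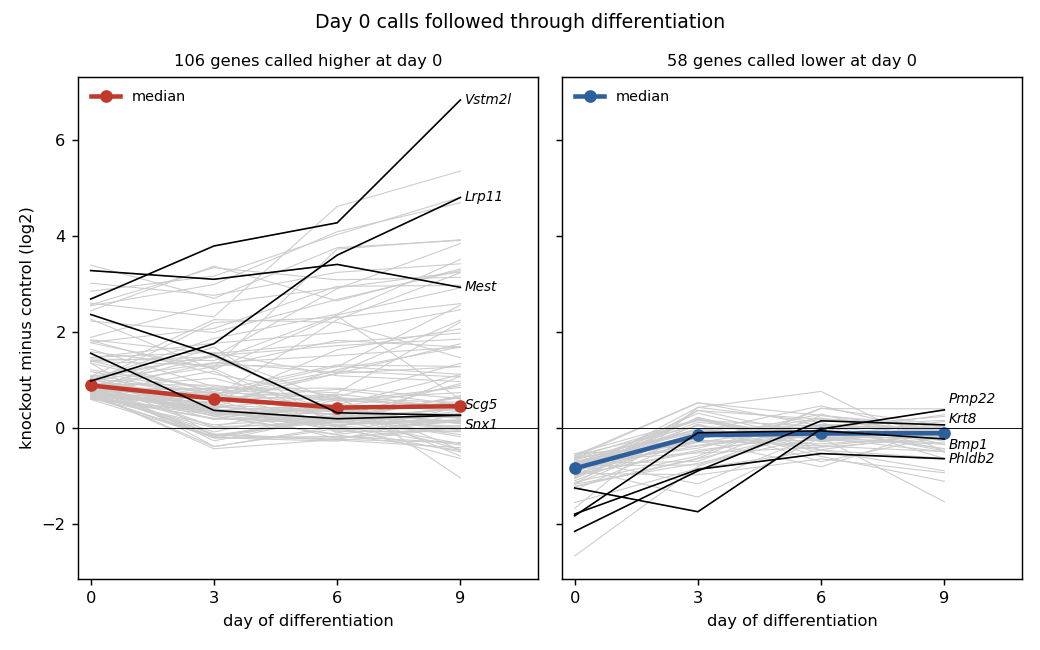
Difference between knockout and control (log2) at days 0, 3, 6 and 9 for the 106 genes called higher at day 0 (left) and the 58 called lower (right), 1 grey line per gene with named genes in black and the median in colour. The medians fall to 0.45 on the left and approach 0 on the right (-0.11 at day 9), and Vstm2l and Lrp11 climb while Snx1 and Scg5 drop. The line lowest at day 0 is Igf2, whose values at days 6 and 9 are set by the normalization.

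Whether the later difference departed from that at day 0 was tested directly, as the mean difference over days 3, 6 and 9 minus the day 0 difference. This was called for 99 genes (1.32%), 62 above 0 (0.826%) and 37 below 0 (0.493%). Among the 106 genes higher at day 0, 13 had a larger difference later and 16 a smaller one. Among the 58 lower at day 0, 16 had a difference that was less negative or positive later, and 0 the opposite. Igf2 is among these 16, but it was the brightest probe on every day 6 and day 9 array, where quantile normalization gives it 1 common value, so its later difference was not measurable. Genes were chosen on the day 0 arrays, which also enter this test, so a shrinking difference is favoured by the choice. The 99 calls were 65 without the first knockout array, 55 without the second and 153 without the first control array.

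Sizes on later days are fitted differences, which are no exact measure where control cells did not detect the probe, as at day 0 for Scg3, Chga, Scg5, Disp2 and Gdap1. Scg3 and Chga differed at day 9 by 3.91 and 3.42 (adjusted p = 6.01e-11 and 8.28e-08), and no departure of their later mean from day 0 was called (adjusted p = 0.928 and 0.916). Syp and Stx1a had larger differences later, by 0.88 ± 0.20 and 0.72 ± 0.14 (adjusted p = 0.0412 and 0.0217). Scg5 differed by 1.52, 0.31 and 0.26 over days 3, 6 and 9, and its later mean was lower than at day 0 by test (adjusted p = 2.27e-05). Of the list of adhesion, axon and cytoskeleton genes, Celsr3, Disp2 and Gdap1 differed at day 9 by 4.81, 5.35 and 4.69. The mean difference over days 3, 6 and 9 was above that at day 0 by test for each (adjusted p = 0.000968, 2.63e-05 and 0.000213). At day 3 alone Disp2 differed by 2.31, against 2.60 at day 0. Mest differed by 3.10, 3.41 and 2.93 at days 3, 6 and 9, and no departure from day 0 was called (adjusted p = 0.802). Of the falls, Phldb2 differed by -0.87, -0.54 and -0.64 at days 3, 6 and 9, and Ccn1 by -0.85, -0.47 and -0.90, both called at days 3 and 9. Bmp1 and Sema3e were called on no later day, and both departed from day 0 by test (adjusted p = 0.000348 and 0.000323).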

How the data were processed

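Intensities of 25697 probes on 16 Illumina arrays were deposited by the authors as a table without normalization, with a detection p-value for each probe and array. Between 25.5% and 28% of the values of an array were below 0, so background had been subtracted before deposit; no source used here names the software. Probe names came from the platform annotation, which gave 1 gene for 23978 probes and none for 1719. The deposited intensity values were corrected by normal-exponential convolution through the detection p-values, raised by 16, quantile-normalized and taken to log2 (neqc, limma 3.58.1, R 4.3.3). Kept were 10241 probes with detection p below 0.01 on both arrays of at least 1 of the 8 groups, and then the probe with the highest mean for each of 7505 genes. A mean per group was fitted over all 16 arrays (lmFit and eBayes, 8 residual degrees of freedom), and genes with a Benjamini-Hochberg adjusted p below 0.05 were called. An exact permutation test of 2 arrays against 2 cannot go below 0.333, so none was used. The fit was tested on simulated data.

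A probe undetected on every array of a group has only a bound there, and its fold is given as at least the bright group's mean over the lowest detected signal (6.87 to 7.50 on the log2 scale, by array) or its own signal, whichever is higher. Named were Rest, the 20 largest rises and 20 largest falls among called genes without overlap, called members of 31 lists, 7 pluripotency genes and, for each direction, 5 called genes with the largest later departure; a few uncalled list members and Noa1 were named after their values were seen. The gene lists and the comparison were chosen with earlier results of these data known. Replicate numbers did not pair the arrays. The alternatives were the background, the offset, the scaling, the authors' table on a log2 scale, the filters, the probe rule, the spread, the replicate block and each array left out.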

Additional observations from a re-analysis of the deposited data

Results flagged for a closer look

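For 10 genes called at day 0 the mean difference between knockout and control over days 3, 6 and 9 departed from that at day 0 by limma's test, 5 with the largest departure in each direction. Upward departures were 2.41 for Lrp11, 2.40 for Igf2, 2.28 for Vstm2l, 2.08 for Maneal and 1.93 for Krt8 on the log2 scale, with adjusted p from 1.01e-05 to 2.81e-05. For Lrp11, Vstm2l and Maneal the fitted difference was larger in embryoid bodies, at 4.80, 6.84 and 3.92 on day 9, against 0.97, 2.68 and 0.89 at day 0. Vstm2l was undetected in control cells at day 0, so its 2.68 is a fitted value and no exact size. Krt8 differed by -0.90 at day 3 and 0.06 at day 9. Igf2 differed by -0.81 at day 3, but its probe ranked 1 by intensity on every array of days 6 and 9, where quantile normalization sets the brightest probe of each array to the same value. Its differences of 0.00 on those days, and with them the size and rank of its departure, are therefore not measurements of Igf2.

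Downward departures were -1.67 for Scg5, -1.30 for Ppp4r4, -1.28 for Snx1, -1.27 for Tmem130 and -1.13 for Zmynd11. All but Snx1 were undetected in control cells at day 0, so their sizes are fitted values. At day 9 these genes differed by 0.26, -0.50, 0.26, 0.16 and -0.41. At day 0 Maneal had log2 levels of 8.12 and 8.23 in knockout cells, against 7.48 and 7.08 in control cells, and lost its call without either knockout array or the second control array. Ppp4r4, a regulatory subunit of a phosphatase, had log2 levels of 7.25 and 6.82 in knockout cells, against 6.08 and 5.99 in control cells. Its other probe differed by 0.04, and its call was lost without the first knockout array. Zmynd11 had log2 levels of 7.13 and 6.60 in knockout cells, against 5.95 and 6.07 in control cells, and kept its day 0 call on 1 of the 4 removals of an array. The groups did not overlap at day 0 for any of the 10.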

How the results depend on the processing

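The 164 calls at day 0 stayed between 117 and 213 under 12 of the 14 settings that left out no day 0 array, and were 36 in the fit to the day 0 arrays alone. Leaving out 1 day 0 array gave 71 to 282 calls, 88 and 71 without the first and second knockout array and 282 and 107 without the first and second control array. Median centring called 185, of which 84.3% were higher against 64.6%, with the median of all genes at 0.13, and no background correction called 120, of which 55.0% were higher. Same-numbered arrays did not deviate together (correlations of -0.118, 0.064, -0.177 and 0.07 for days 0, 3, 6 and 9); the replicate block within each day left 92 calls, and 60 of the 99 calls of the later test, and the crossed block at day 0, added after seeing the data, left 117 and 74. The later test gave 55 to 153 calls when 1 day 0 array was left out. Calls among list members, 54, were 22 in the fit to day 0 alone and 31 to 48 with 1 array left out. Among the named genes followed through the settings, the direction turned only for uncalled ones, in Pou5f1 to -0.00273 with the mean of probes, and in Klf4 to -0.269. With 1 array left out Pou5f1 ranged over -0.085 to 0.0964 and Klf4 over -0.0357 to 0.253. Over the genes so followed, the lists and all settings together, 211 called values kept their direction and lost the call. In the same total 107 counts of list members moved by over 1.5 times, and 1497 values did neither. Signal near background limits the calls: 11 called genes had no probe detected on any of the 4 day 0 arrays.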

Other observations

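Among the called genes outside the lists, named here after their values were seen, several others of neurons or lipid metabolism rose at day 0. The calls of Hcn2 and Gprin1 were lost without the second knockout array (adjusted p = 0.0921 and 0.0936) and without the second control array (0.0795 and 0.0515). Phyhipl was higher by 1.46, 1.76, 1.99 and 2.46 on days 0, 3, 6 and 9. Hcn2, a pacemaker channel, rose by 0.86 in stem cells (adjusted p = 0.00775), with 3.84 on day 9. Gprin1, a membrane protein of the growth cone, rose by 0.95 in stem cells (adjusted p = 0.00658), with 2.59 on day 9. Prmt8, an arginine methyltransferase of brain, rose by 1.35 in stem cells (adjusted p = 7.07e-06), with -0.17 and 0.19 on days 3 and 6. Of lipid genes, Elovl2, which lengthens polyunsaturated fatty acids, rose by 1.21, and Acsl6, which activates fatty acids, by 0.99 (adjusted p = 0.00233 and 0.00121). Xlr4a, of an X-linked multigene family whose copies a probe may not separate, rose by 1.07 at day 0 and differed by 1.85 at day 9.

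By chromosome, the median difference over tested genes at day 0 lay between -0.03 and 0.06, apart from chromosome Y with 2 genes. Chromosome 11 had the highest of these, 0.06 over 649 genes, with 11 called higher (1.69%, beside 1.41% of all genes tested) and 1 lower, and its medians at days 3, 6 and 9 were 0.09, 0.11 and 0.12. Chromosome 5, which holds Rest, had a median of 0.02 over 476 genes, with 11 called higher (2.31%) and 3 lower.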
